A study of Homo sapiens with 12 samples.

Results

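The comparison asked how far the response to silencing of CBX7 depended on the cell line. It used all 12 of the 12 libraries of the series, in 4 groups of 3: 786-O cells and 5637 cells, each with a hairpin against CBX7 (shCBX7, genotype label "case") or with a control hairpin (sh control, genotype label "control"). 786-O is an established line of renal cancer cells and 5637 an established line of bladder cancer cells. Both were grown in RPMI-1640 with serum and carried no other treatment, and total RNA was made into directional RNA-seq libraries. The series title joins CBX7 to EZH2, FGFR3 and cisplatin in bladder cancer. In 2 of the 5637 controls the title gives a different number for the line, and the cell line field reads 5637. The table columns name the silenced arm "si" where the labels say sh, and the number of hairpins is not given.

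The authors deposited FPKM values (fragments per kilobase of gene, scaled to library size), in 1 table per line. The tables were joined by gene name, which gave 29809 genes present once in both, of 58735 genes in the 786-O table and 29890 in the 5637 table. A mean of 0.5 FPKM or more within each line was reached by 10354 genes, which were tested, and 9936 of them are protein coding. A change is the mean log2(FPKM + 1) of the shCBX7 libraries minus that of the controls of the same line, and the line difference is the change in 786-O minus the change in 5637. The added 1 understates the change of genes with low FPKM. Changes and line differences were tested with limma over all 12 libraries, and an adjusted p under 0.05 (Benjamini-Hochberg) was a call. The origin of the replicates is not stated, and the p-values measure how these libraries vary, part of which may be technical. Each line had its own controls and its own table, so line and processing run cannot be told apart.

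CBX7 is 1 of several interchangeable CBX subunits of Polycomb repressive complex 1 (PRC1). Its chromodomain reads trimethylated lysine 27 of histone H3, the mark that EZH2 writes as the catalytic subunit of Polycomb repressive complex 2 (PRC2), and PRC1 then helps to keep marked genes silent. HOX genes are the textbook targets. Which genes carry the mark differs from one cell type to another.

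CBX7 itself (chr22:39120167-39152674, minus strand, GRCh38) was lower with its hairpin in both lines, with calls in 5637 and between the lines that several alternatives ended. Its controls read 1.63, 1.75 and 1.49 FPKM in 786-O and 2.19, 2.17 and 2.42 in 5637. With shCBX7 it read 1.01, 0.892 and 1.07 in 786-O, 61.0% of the control mean, and 1.86, 1.8 and 1.97 in 5637, 83.3% of the control mean. The arms did not overlap in either line. The changes were -0.40 in 786-O (limma, adjusted p = 4.04e-05) and -0.18 in 5637 (adjusted p = 0.033). The line difference of -0.22 had an adjusted p of 0.0308 in limma. The fall in 5637 was not called in 7 of the 20 alternative analyses in which CBX7 was tested: with a pseudocount of 0.1, with the replicate number as a block, and without 5637 shCBX7 library 1 or 2 or any 1 of the 3 control libraries of 5637. It was -0.25 to -0.14 there. The line difference lost its call under median centring (-0.17), with the replicate block (-0.22, adjusted p = 0.0548 in limma) and when each of 6 libraries was left out in turn, at values of -0.23 to -0.19. These were 786-O shCBX7 library 2, 786-O control 2, 5637 shCBX7 libraries 1 and 3 and 5637 controls 1 and 2. The message that remained after silencing differs between the lines in every comparison below, and its part in the results was not tested.

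FGFR3, a receptor tyrosine kinase for fibroblast growth factors that is often altered in bladder cancer, rose in 5637. Its controls there read 2.15, 2.02 and 2.27 FPKM and its shCBX7 libraries 15.7, 16.8 and 16.3. In 786-O the readings were 1.19, 0.911 and 0.737 in controls and 1.21, 1.47 and 1.53 with shCBX7, so the gene stayed near 1 FPKM and the arms came close without overlapping. The changes were 2.46 in 5637 and 0.31 in 786-O, and the line difference was -2.15 (limma, adjusted p = 8.17e-09). FGFR3 was thus called as rising in both lines, and further in 5637. Its rise in 786-O (limma, adjusted p = 0.00343) kept its call in all 19 alternative analyses in which it was tested. It could not be tested with the filter of 2 FPKM or with voom on recovered reads. No tested gene had a larger change in 5637. EZH2 fell in 5637 from 40.1, 38.9 and 39.6 to 29.5, 31.2 and 30.1 FPKM, a change of -0.37. In 786-O it read 9.26, 10.8 and 10.9 in controls and 9.49, 9.22 and 9.04 with shCBX7, and there the arms overlapped (change -0.14, adjusted p = 0.0298). Its line difference was 0.24 (limma, adjusted p = 0.0147). In 8 of the 21 alternative analyses its change in 786-O was not called, among them those without 786-O shCBX7 library 2 or 3 or 786-O control 2 or 3 and the one with the replicate block.

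Over all tested genes the line difference was called for 5966 (57.6%). It was above 0 for 2579 (24.9%) and below 0 for 3387 (32.7%). From here on a gene is called higher in 786-O when its called line difference is above 0 and lower in 786-O when it is below 0, whatever its level. The counts of each list below are to be read beside these shares of all tested genes, 24.9% higher and 32.7% lower. Within the lines, 6910 genes (66.7%) changed in 786-O and 3089 (29.8%) in 5637. Changes were larger in 786-O, with a median absolute size of 0.23 against 0.10. A change of at least 2-fold on this scale was called for 329 genes in 786-O and 8 in 5637. The median change was -0.02 in 786-O and 0.02 in 5637. Across the tested genes the 2 sets of changes had a Pearson r of 0.12 and a Spearman rho of 0.09, which describes genes and not replicates.

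Genes called in both lines numbered 2241, which is 32.4% of the calls in 786-O and 72.5% of those in 5637. Of these, 1010 (45.1%) moved in opposite directions with the line difference called. At a mean of at least 5 FPKM in each line the share was 637 of 1355 (47.0%). The other 1231 moved the same way, 647 of them without a called line difference. The opposite class split into 363 genes up in 786-O and down in 5637 (3.51% of the tested genes) and 647 genes down in 786-O and up in 5637 (6.25%). Quantile normalization evened this split to 594 and 585, and median centring turned it round, to 537 and 454. Which order held more genes therefore depended on the normalization. Without 5637 control library 1 the first order held 236 genes.

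Genes called in 1 line, with the difference itself called, numbered 1605 up in 786-O only (15.5%) and 2039 down in 786-O only (19.7%). In 5637 only, 321 were up (3.10%) and 205 down (1.98%). A further 538 genes moved the same way but further in 786-O (5.20%), 46 further in 5637 (0.444%), and 202 had a called line difference and no call within a line (1.95%). The median within-arm variance over the tested genes was 3.92 times as large in 786-O as in 5637, and the fit shares 1 spread between the lines. With 1 weight per line in its place, 5352 genes were called in 5637 and 5951 in 786-O, and 1507 were opposite. The counts for 786-O only then were 1002 up and 1337 down, and those for 5637 only 554 up and 374 down. The last of these was 345 under quantile normalization and 315 under median centring. Moves further in 786-O numbered 351 without 5637 control library 1 and 356 without control library 3. Moves further in 5637 numbered 27 to 29 without 786-O shCBX7 library 2, 786-O control 3, 5637 shCBX7 library 3 or 5637 control 3. A gene listed as moving in 786-O only is therefore one whose change in 5637 missed the call, not one shown to be without change there.

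**Figure D1:**
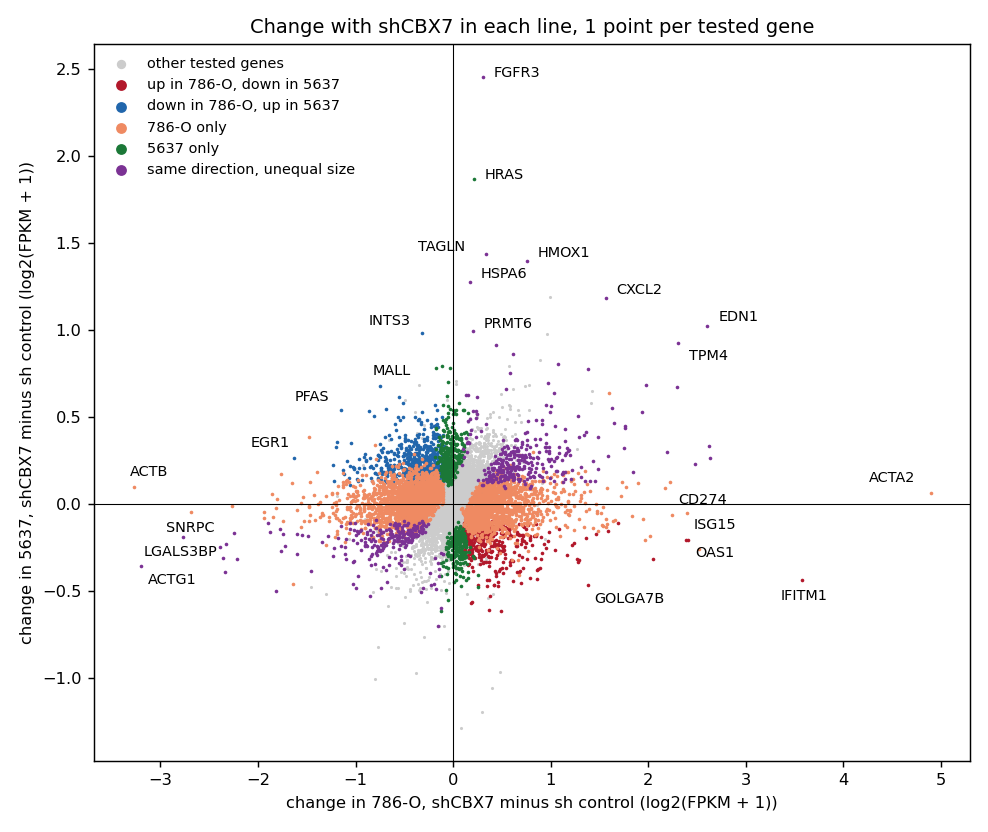
Each point is 1 of the 10354 tested genes, with its change in 786-O on the horizontal axis and in 5637 on the vertical axis (both log2(FPKM + 1), shCBX7 minus control), coloured by class. The horizontal spread exceeds the vertical one, FGFR3 stands at 2.46 on the vertical axis, and the opposite classes lie at the upper left and lower right.

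Ranked by the smaller of the 2 changes, the genes up in 786-O and down in 5637 were led by HES1, the basic helix-loop-helix repressor downstream of Notch. HES1 rose from 8.83, 9.31 and 9.93 to 13.5, 13.6 and 12.7 FPKM in 786-O and fell from 66.4, 66.6 and 64.9 to 48, 45.5 and 48.3 in 5637, changes of 0.47 and -0.47. CLK1, a kinase of SR splicing factors, went from 4.33, 4.19 and 4.03 to 6.8, 8.07 and 7.43 in 786-O and from 27.2, 26.2 and 26.5 to 18.4, 19.4 and 19.6 in 5637 (0.70 and -0.46). In each of these genes the shCBX7 libraries of 786-O lay above every control and those of 5637 below every control. IFITM1, an interferon-induced membrane protein that hinders virus entry, had the largest rise of the 6 named genes in 786-O, from 7.21, 4.55 and 6.06 to 86.8, 82.8 and 73.7 FPKM (3.58). It was low in 5637, where it went from 3.99, 3.37 and 3.4 to 2.62, 2.3 and 2.25 (-0.44); without 5637 control library 1 that fall was not called. GOLGA7B, an accessory protein of palmitoyltransferases, rose from 2.53 ± 0.328 to 8.22 ± 0.298 FPKM in 786-O (mean ± SD, n = 3 per group, as for every such pair below) and fell from 23 ± 0.90 to 16.4 ± 0.151 in 5637. YPEL2, of the small Yippee family, had changes of 0.46 in 786-O and -0.45 in 5637 on the log2 scale, in that order of lines here and below. ETV7, an ETS-family transcription factor, had changes of 0.62 and -0.44, from 0.984, 0.597 and 0.868 to 1.42, 2.07 and 1.87 FPKM in 786-O and from 4.11, 4.11 and 3.93 to 2.36, 2.9 and 2.94 in 5637. Of the 363 genes of this order, 339 had arms that did not overlap in either line, against 4028 of all 10354 tested genes. The class requires a call in both lines, so a high share is built into it.

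By the same ranking the genes down in 786-O and up in 5637 were led by the small MAL-family membrane protein MALL. MALL fell from 2.42, 2.39 and 3.33 to 1.43, 1.16 and 1.01 FPKM in 786-O and rose from 3.34, 2.79 and 2.37 to 5.75, 4.26 and 5.42 in 5637 (-0.75 and 0.68). PFAS, which catalyses a step of de novo purine synthesis, fell from 12.4, 11.2 and 12.5 to 4.61, 4.76 and 5.29 in 786-O and rose from 2.93, 2.78 and 2.81 to 4.63, 4.73 and 4.41 in 5637 (-1.15 and 0.54). With shCBX7 the 2 lines held PFAS at a similar FPKM, where the controls stood well apart. WDR4, the partner of METTL1 in a transfer RNA methyltransferase, had changes of -0.69 and 0.55. NCOA5, a nuclear receptor coactivator, had changes of -0.56 and 0.62. HPS6, a subunit of the BLOC-2 complex of lysosome-related organelles, fell from 32.9 ± 2.32 to 17.7 ± 1.5 FPKM in 786-O and rose from 3.14 ± 0.0521 to 5.01 ± 0.179 in 5637. Arms did not overlap in either line for 609 of the 647 genes of this order, a class that also requires a call in both lines. Of the 11 genes named for the opposite classes, 10 stayed in their class in every alternative in which they were tested; IFITM1 is the exception given above.

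**Figure D2:**
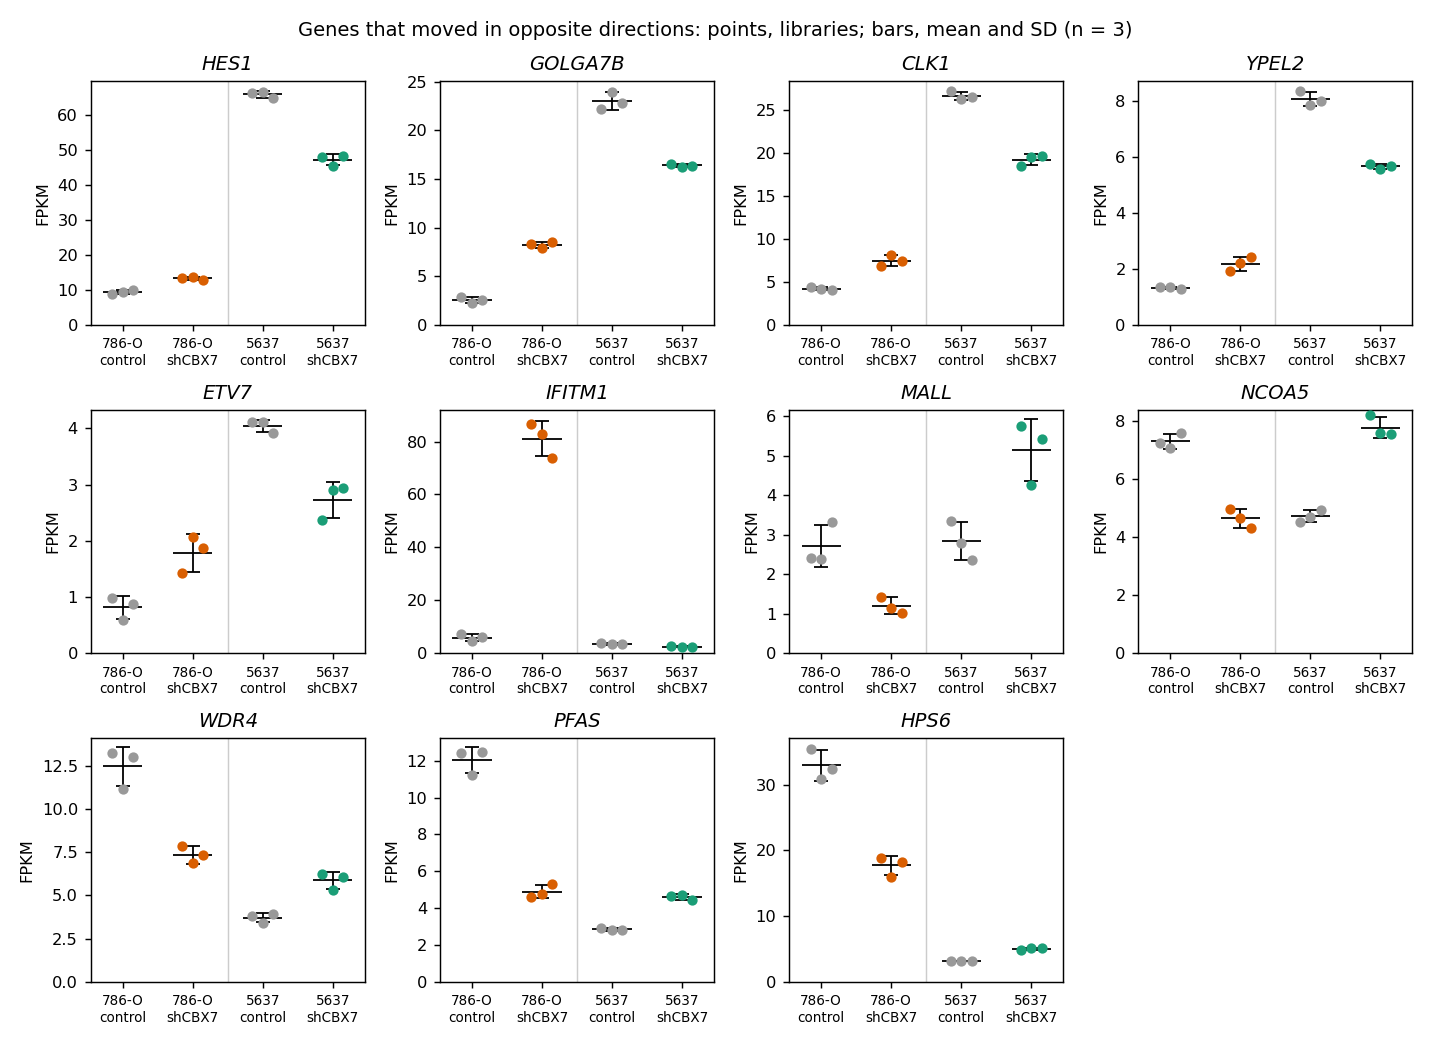
FPKM of the 11 genes named for the opposite classes, 1 panel per gene; points are libraries and bars the mean with SD (n = 3) of each line and arm. In the first 6 genes shCBX7 lies above control in 786-O and below it in 5637, and in the last 5 the order is turned round.

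The opposite classes also differed in level. Genes up in 786-O and down in 5637 had a median control level of 7.80 FPKM in 786-O and 15.2 in 5637, which became 10.5 and 12.6 with shCBX7. Genes of the other order had medians of 12 and 8.98 in controls and 8.51 and 10.9 with shCBX7. The control level was higher in 786-O for 26.2% of the first order and 63.4% of the second, against 42.3% of all tested genes. In 5637 only, genes that rose had median control levels of 10.1 FPKM in 786-O and 6.49 in 5637, and those that fell had 3.60 and 12.1. These levels come from the control libraries that also enter the changes, so they are a description only.

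ACTA2 and ACTB had the highest and the lowest line difference of all tested genes. ACTA2, smooth muscle actin, rose in 786-O from 2.01, 2.25 and 1.87 to 93.1, 91.3 and 84.6 FPKM and read 1.16, 1.2 and 1.06 in controls and 1.34, 1.2 and 1.16 with shCBX7 in 5637 (4.90 and 0.06, adjusted p of the line difference 4.53e-13 in limma). ACTB, the main cytoplasmic actin and a common reference gene, fell in 786-O from 1633, 1585 and 1620.2 to 169, 163 and 166, while 5637 read 514, 508 and 506 in controls and 575, 518 and 546 with shCBX7 (-3.27 and 0.10). Its rise in 5637 was called in 4 alternatives. ACTG1, the other cytoplasmic actin, fell in both lines, by 3.20 on the log2 scale in 786-O and by 0.35 in 5637, from 1557 ± 33.3 to 1217 ± 18.3 FPKM. Under quantile normalization its change in 5637 was 0. Actin genes share much of their sequence, and how the authors' counting split reads between them is not given. Of 35 tested actin, tropomyosin and myosin genes, 18 changed more upward in 786-O, 10 more downward, and 12 moved the same way further in 786-O. Among SRF and MRTF targets, genes driven by the actin-sensing transcription factor pair, 7 of 16 were higher and 7 lower in 786-O. TAGLN, a smooth muscle actin-binding protein chosen after its values were seen, moved further in 5637: it rose there from 0.499, 0.522 and 0.629 to 3.28, 3.07 and 3.23 FPKM (1.44) and in 786-O from 0.489, 0.404 and 0.433 to 0.929, 0.613 and 0.96 (0.34).

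Other genes up in 786-O only were of varied roles. ANGPTL4, a secreted inhibitor of lipoprotein lipase, rose from 21.1 ± 2.28 to 102 ± 5.86 FPKM in 786-O and read 7.84 ± 0.518 and 8.65 ± 0.411 in 5637. PPP1R3B, the glycogen-targeting subunit of protein phosphatase 1, rose from 1.91 ± 0.199 to 12.2 ± 0.902 against 6.81 ± 0.14 and 7.34 ± 0.394 in 5637. In both genes the 786-O arms stood several-fold apart and the 5637 arms close together. ARHGDIB rose in both lines, by 2.64 in 786-O and 0.26 in 5637. Genes down in 786-O only included SNRPC, the C protein of the U1 splicing particle, which fell from 182, 168 and 181 to 29.4, 24.7 and 26.1 FPKM while 5637 stayed at 32.4 ± 1.17 and 31.3 ± 0.489. B4GALT1, a galactosyltransferase of the Golgi, fell from 26.5 ± 0.652 to 4.74 ± 0.58, and ALG8, a glucosyltransferase of N-glycan assembly, from 22.3 ± 0.482 to 5.44 ± 0.513. GGCT, an enzyme of glutathione turnover, had changes of -1.94 in 786-O and -0.04 in 5637, and SNX12, a sorting nexin, of -1.94 and -0.08. LGALS3BP, a secreted galectin-3-binding protein, fell in both lines, from 251 ± 15 to 36 ± 1.91 FPKM in 786-O and from 126 ± 1.76 to 111 ± 2.36 in 5637.

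The genes named for 5637 only had smaller changes than those named for 786-O only. B3GALT6, a galactosyltransferase of the proteoglycan linker, rose from 3.68, 4.0 and 3.89 to 7.12, 7.51 and 7.65 FPKM in 5637 and read 19.4 ± 2.19 and 17.9 ± 1.48 in 786-O, where the arms overlapped. GTF3C6, a subunit of the RNA polymerase III factor TFIIIC, rose from 5.15, 5.84 and 5.11 to 10.1, 9.74 and 9.94 and read 41.2 ± 2.48 and 40.5 ± 5.23 in 786-O. PDGFB, a chain of platelet-derived growth factor, rose from 8.34, 8.54 and 8.97 to 14.6, 14.7 and 14.6 against 23.2 ± 0.681 and 22.3 ± 1.41. In all 3 genes the shCBX7 libraries of 5637 stood above its controls and below every library of 786-O. S100A3, a calcium-binding protein, rose by 0.78, TTPAL, a relative of the vitamin E transfer protein, by 0.62 and ARPC4, a subunit of the actin-branching Arp2/3 complex, by 0.58. In 786-O the values of these 3 were -0.17, -0.06 and 0.06. Genes down in 5637 only included CCNL1, a cyclin tied to splicing, from 47.6, 44.6 and 45.5 to 31.7, 33.7 and 33.2 FPKM, against 5.47 ± 0.182 and 5.84 ± 0.371 in 786-O. AVPI1 fell from 51 ± 1.77 to 35.9 ± 0.624 and ARRDC4, an arrestin-domain protein, from 37.3 ± 0.35 to 27.3 ± 0.694. The changes of TSC22D2, the sterol carrier STARD4 and the NKG2D ligand RAET1G were -0.45, -0.44 and -0.43 in 5637 and 0.01, 0.13 and 0.16 in 786-O. STARD4 was called as opposite in 4 alternatives. PRMT6, an arginine methyltransferase of histones, and HMOX1, the heme-degrading oxygenase, rose in both lines and further in 5637: PRMT6 by 0.20 and 0.99, and HMOX1 by 0.76 and 1.40 (from 9.11 ± 0.297 to 25.7 ± 0.817 FPKM in 5637).

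**Figure D3:**
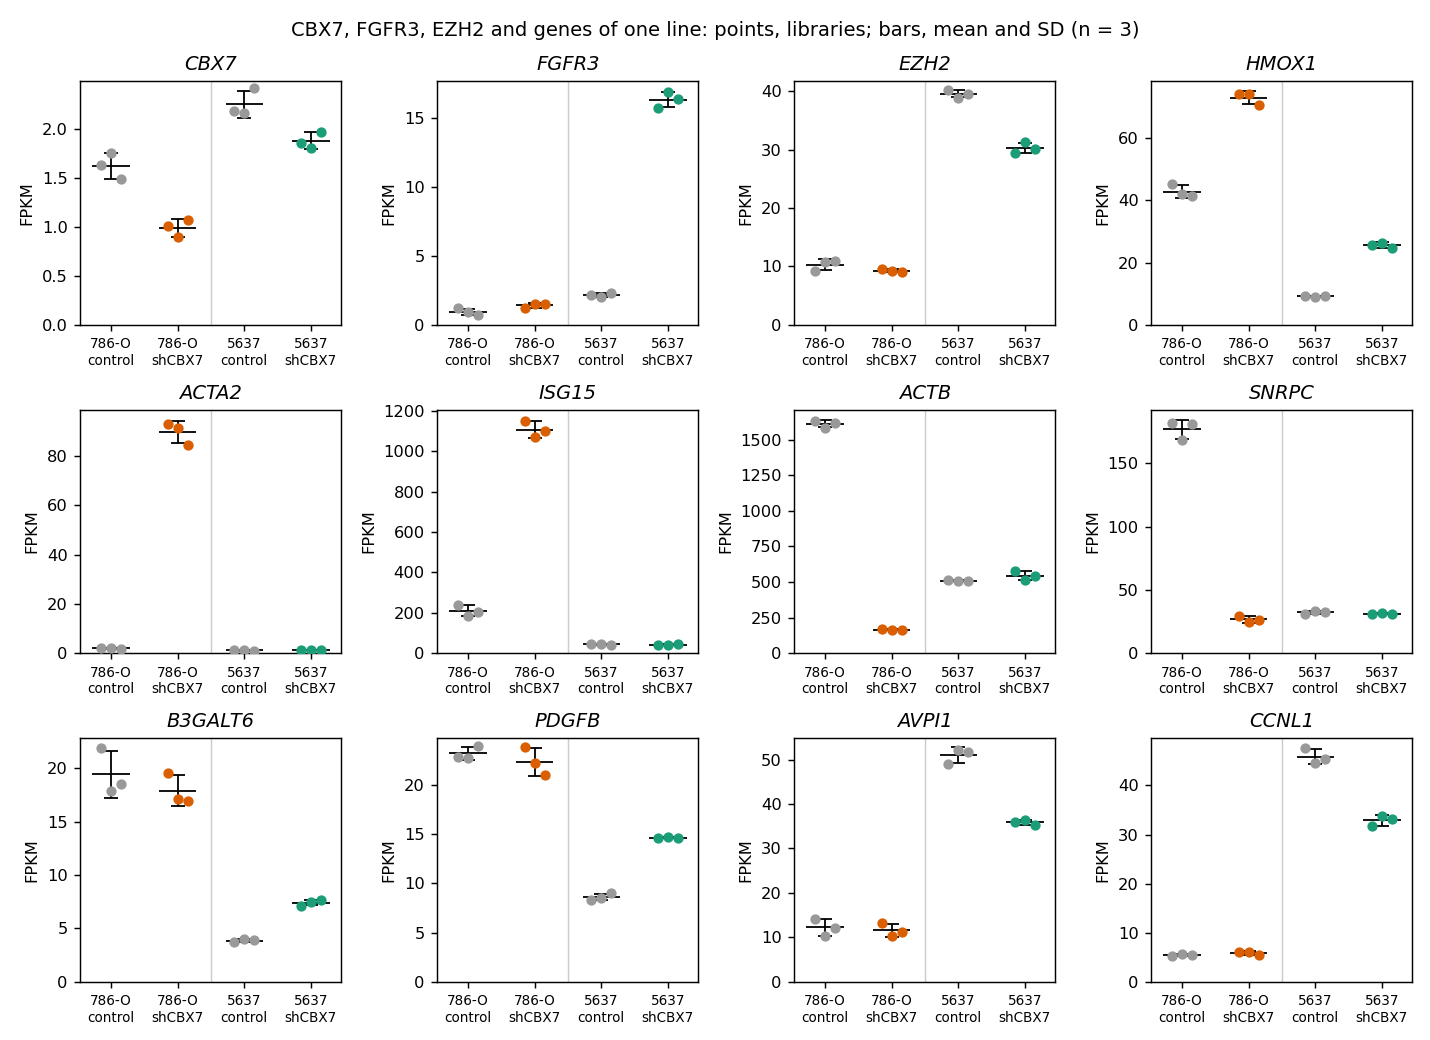
FPKM of CBX7, FGFR3, EZH2, HMOX1 and 8 genes called in 1 line, 1 panel per gene; points are libraries and bars the mean with SD (n = 3). ACTA2, ISG15, ACTB and SNRPC differ between arms in 786-O, and B3GALT6, PDGFB, AVPI1 and CCNL1 in 5637.

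Most interferon-stimulated genes rose in 786-O. Interferons act through the STAT and IRF factors, which bind the interferon-stimulated response element (ISRE) in front of antiviral genes. Of 34 tested members, 32 had a line difference higher in 786-O (against 24.9% of all tested genes) and 1 a lower one. In 786-O 32 rose and 1 fell, and in 5637 2 rose and 5 fell. Of all tested genes 66.7% were called in 786-O and 29.8% in 5637, in either direction. The class counts were 25 up in 786-O only and 4 up in 786-O and down in 5637, and the median change was 1.28 in 786-O and -0.05 in 5637. A further 11 of the 45 listed genes were under the expression filter. ISG15, a ubiquitin-like modifier, rose from 239, 187 and 206 to 1152, 1069 and 1101 FPKM in 786-O and in 5637 read 43.5, 45.6 and 43 in controls and 40.8, 43.1 and 43.5 with shCBX7, where the arms overlapped. OAS1, a sensor of double-stranded RNA, rose from 9.74, 8.33 and 8.41 to 52, 50.8 and 50.5 in 786-O and fell from 3.37, 2.95 and 3.17 to 2.39, 2.75 and 2.66 in 5637; that fall was not called without 5637 shCBX7 library 1 or 5637 control 1 or 3. IFIT3 and IFI6, chosen after their values were seen for their promoter sequence, rose in 786-O from 22.3, 24 and 23.7 to 76.2, 74.7 and 72.8 and from 808, 673 and 685 to 2879, 2960.1 and 3095. In 5637 IFIT3 read 4.11 ± 0.304 and 3.77 ± 0.212, and IFI6 fell from 12.2 ± 0.923 to 9.58 ± 0.958, a fall not called with voom. CD274, the immune checkpoint ligand PD-L1, rose from 5.85, 6.69 and 6.14 to 32.6, 35.5 and 31.9 in 786-O, past its level in 5637 of 20.4 ± 0.237 in controls and 19.5 ± 0.684 with shCBX7. LGALS9, galectin-9, rose from 0.489 ± 0.0822 to 4.72 ± 0.148 in 786-O and read 1.63 ± 0.187 and 1.48 ± 0.166 in 5637.

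The upstream sequences of 5 of these genes are shown because they hold letters of the element that interferon signalling acts on. Each is a stretch of 60 bases before the gene start, taken from RefSeq (GRCh38.p14) and written 5′ to 3′ on the gene's strand. Capitals mark the ISRE core GAAANNGAAA or its reverse complement, with overlapping matches run together. They are ISG15 at chr1:1013365-1013424 (plus strand), IFITM1 at chr11:313975-314034 (plus), IFIT3 at chr10:89327850-89327909 (plus), IFI6 at chr1:27672251-27672310 (minus) and CD274 at chr9:5450315-5450374 (plus).
ISG15: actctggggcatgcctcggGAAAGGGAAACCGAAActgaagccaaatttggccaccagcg
IFITM1: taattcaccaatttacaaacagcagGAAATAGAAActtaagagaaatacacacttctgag
IFIT3: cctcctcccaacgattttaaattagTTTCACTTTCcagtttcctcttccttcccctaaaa
IFI6: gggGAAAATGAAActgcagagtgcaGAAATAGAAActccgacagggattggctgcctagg
CD274: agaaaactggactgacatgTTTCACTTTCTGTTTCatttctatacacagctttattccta
In the 250 bases before the start, the motif was found on either strand for 16 of 27 interferon-stimulated genes with a promoter in the table (59.3%). It was found for 186 of 8346 tested genes (2.23%) and for 839 of all 27305 promoters (3.07%). The share was 3.87% among genes up in 786-O only. OAS1, LGALS9, HLA-B and HLA-C had no match in this window. A match describes letters and does not show binding.

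Genes of class I antigen presentation, which show peptides to T cells, were also higher in 786-O. Of 11 tested members 10 were higher in 786-O and none lower, and 3 were up in 786-O and down in 5637 (medians 0.54 and -0.06). HLA-C read 866, 732 and 790.5 FPKM in the 786-O controls and 4.13, 4.07 and 4.28 in those of 5637. With shCBX7 it read 1329, 1306 and 1372 in 786-O and 2.92, 3.7 and 3.69 in 5637. Its changes were 0.75 and -0.22, and those of HLA-B 0.86 and 0.05. HLA genes are similar in sequence, so reads can be split between them. The summed leukocyte markers did not rise beside these genes: over the 9 markers the level in 786-O was 17.6 to 21.8 FPKM in controls and 9.26 to 10.2 with shCBX7, and PTPRC and CD3E were at 0 there. LAPTM5, which makes up most of that sum, fell in both lines (-1.03 and -0.21); in 5637 the fall was not called without 5637 shCBX7 library 2 or 3 or 5637 control 1 or 2. In 5637 the sums were 56.5 to 58.5 and 53.7 to 54.4. Of the endothelial markers, the sums were at most 2.32 FPKM in any library.

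Cytokines and NF-kB targets went both ways. NF-kB is the transcription factor family of inflammatory signalling. Of 23 tested genes 12 were higher and 6 lower in 786-O, 15 rose in 5637, and 4 were down in 786-O and up in 5637. IL11, a cytokine of the IL-6 family, fell in 786-O from 42.3, 37 and 39.8 to 16.6, 16.9 and 16.5 FPKM and rose in 5637 from 15.6, 15.7 and 15.6 to 19.2, 20.4 and 20.2. LIF, of the same family, CXCL5, a neutrophil chemokine, and NFKB1, an NF-kB subunit, did likewise; these 3 were named after their values were seen. Their changes were -0.64 and 0.37, -0.58 and 0.22, and -0.53 and 0.34. ICAM1, a leukocyte adhesion receptor, rose from 53.6 ± 1.37 to 127 ± 3.82 in 786-O and read 22.8 ± 0.993 and 23.8 ± 0.748 in 5637. IL1B, at 0.452 ± 0.0305 FPKM in the 786-O controls and 220.2 ± 2.93 in those of 5637, had changes of 1.35 and 0.19.

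HOX genes, the textbook Polycomb targets, held many members that rose in 786-O and many that fell in 5637. Of 24 tested members (14 of 39 were under the filter), 17 were higher and 2 lower in 786-O, against 24.9% and 32.7% of all tested genes. In 786-O 13 rose and 2 fell, and in 5637 none rose and 12 fell. Members up in 786-O and down in 5637 numbered 6, in a class that holds 3.51% of all tested genes. HOXA9 rose in 786-O from 18.8, 19.8 and 21.3 to 39.4, 39.1 and 35.9 FPKM and fell in 5637 from 39.5, 40.9 and 38.2 to 30.7, 32.5 and 31.6. HOXB7 and HOXA5 rose in 786-O, by 0.95 and 0.82, and had changes of -0.04 and 0.01 in 5637. The median change of the list was 0.23 and -0.16. Among 17 tested PRC1 subunits 6 were higher and 3 lower in 786-O, a share called of 52.9% against 57.6% of all tested genes. CBX6, a paralogue of CBX7, fell in 786-O from 13.5, 13.3 and 12.9 to 9.13, 8.88 and 9.43 and rose in 5637 from 12.8, 13.3 and 13.6 to 14.6, 15.3 and 16.2. L3MBTL2, of a variant PRC1, fell by 0.98 on the log2 scale in 786-O. Its change in 5637 was 0.14 and missed the call (limma, adjusted p = 0.0514), and it was called as opposite in 6 alternatives. Among 10 tested PRC2 subunits and cofactors 6 were higher and 2 lower in 786-O. EZH1, the second PRC2 methyltransferase, rose in 786-O from 2.15, 2.14 and 2.25 to 3.22, 3.24 and 3.52 and fell in 5637 from 15.9, 16 and 15.7 to 12.6, 12.5 and 12.7. RBBP4 and JARID2 rose in 786-O, by 0.69 and 0.58, beside -0.09 and 0.07 in 5637.

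Ribosome assembly factors were largely lower in 786-O. The factors that build ribosomes in the nucleolus, a list drawn up after values were seen, had 74 of 104 tested members lower in 786-O (against 32.7% of all tested genes) and 1 higher. In 786-O 69 fell, in 5637 51 rose, and 35 were down in 786-O and up in 5637, a class that holds 6.25% of all tested genes. The medians were -0.22 and 0.16. NCL, nucleolin, fell in 786-O from 104, 113 and 109.7 to 69.5, 71.7 and 72.8 FPKM and rose in 5637 from 50.9, 52.7 and 51.2 to 63.7, 63.5 and 63.6. NOL6, of the small-subunit processome, had changes of -0.86 and 0.26, and TBL3, of the same complex, of -0.76 and 0.18. The subunits of RNA polymerase I, which transcribes ribosomal RNA, were also listed after values were seen. Of the 5 tested subunits, 4 were lower in 786-O. POLR1A, its largest subunit, fell from 2.5, 2.66 and 2.75 to 1.07, 1.03 and 1.12 in 786-O and rose from 2.28, 2.14 and 2.3 to 3.7, 3.53 and 3.59 in 5637, while POLR1E and POLR1C had changes of -0.58 and -0.25 in 786-O and of 0.07 and -0.02 in 5637. The E-box CACGTG, the motif of MYC and related factors, was found in the 250 bases before the start of 16 of 86 of the assembly factors (18.6%) and of 9.07% of tested genes. Over the whole class down in 786-O and up in 5637 the share was 9.47%, and over the reverse class it was 11.6%. It was 12.4% among genes up in 5637 only and 4.92% among cytosolic ribosomal proteins.

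Structural proteins of the cytosolic ribosome fell in 786-O, and few were called in 5637. All 67 called line differences among 76 tested proteins were lower in 786-O, and 71 fell in 786-O. In 5637 9 of the 76 fell and none rose, against 29.8% of all tested genes called there in either direction. The medians were -0.59 and -0.08. RPSA read 525, 479 and 512 FPKM in the 786-O controls and 186, 179 and 173 with shCBX7, against 167, 171 and 167 in controls and 143, 151 and 151 with shCBX7 in 5637. RPSA and RPL4 had changes of -1.49 and -1.15 in 786-O and of -0.18 and -0.12 in 5637. These genes have many processed pseudogenes that can take their reads. Mitochondrial ribosomal proteins had 54 of 73 lower in 786-O and 4 higher, with 17 down in 786-O and up in 5637. MRPS12 fell from 51.2 ± 4.99 to 24.1 ± 1.26 in 786-O and rose from 9.16 ± 0.352 to 10.8 ± 0.329 in 5637, a rise not called without 5637 shCBX7 library 2 or 3 or 5637 control 1 or 3. MRPS11 and MRPL20 had changes of -1.43 and -1.13 in 786-O beside 0.05 and 0.18. Mitochondrial aminoacyl-tRNA synthetases, which load transfer RNAs in the organelle, were listed after values were seen. Of the 15 tested, 10 were lower in 786-O and 4 opposite, among them AARS2 (-0.59 and 0.43). EARS2 had changes of -0.73 and 0.07. Among 34 translation initiation and elongation factors 19 were lower and 4 higher. EIF4G1, the scaffold of the cap-binding complex, fell from 44.9 ± 1.29 to 28.3 ± 1.34 in 786-O and rose from 38.5 ± 0.596 to 44.7 ± 0.91 in 5637, EIF6 had changes of -0.37 and 0.26, and EEF1B2 of -0.68 and 0.08.

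**Figure D4:**
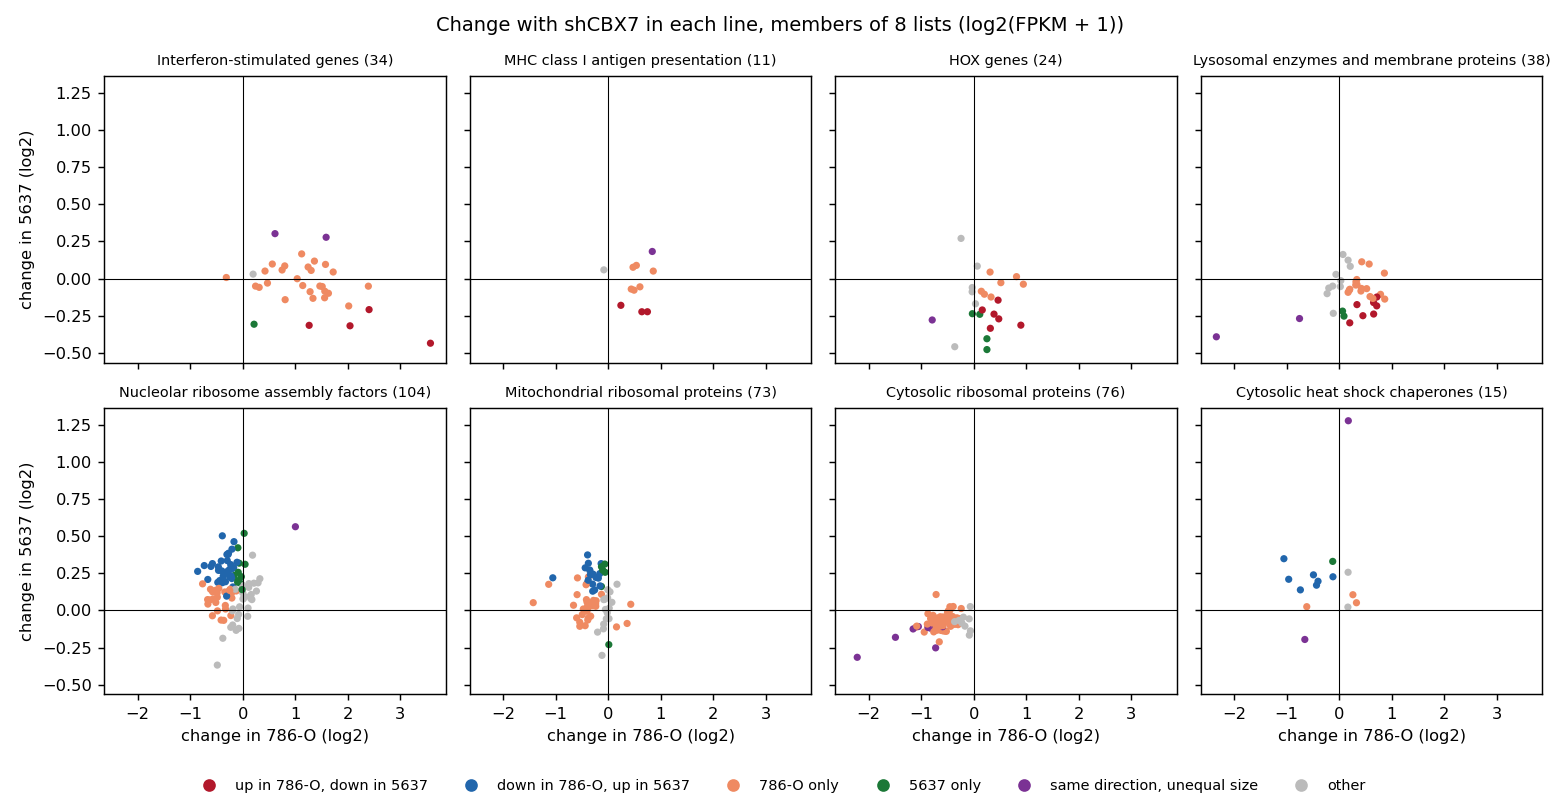
Change in 786-O (horizontal) against change in 5637 (vertical), log2(FPKM + 1), for the tested members of 8 lists, coloured by class. Interferon-stimulated genes spread to the right near 0 on the vertical axis, cytosolic ribosomal proteins spread to the left, and nucleolar factors lie mainly at the upper left.

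Heat shock chaperones and proteasome subunits were largely lower in 786-O. Of 15 tested cytosolic and mitochondrial heat shock chaperones, which fold proteins, 11 were lower and 2 higher in 786-O and 7 were down in 786-O and up in 5637. HSP90AA1 fell from 212, 244 and 232 to 109, 112 and 109 FPKM in 786-O and rose from 410.4, 402 and 407 to 528, 514 and 513 in 5637. HSPD1, of mitochondria, and HSPA8, of the cytosol, had changes of -0.96 and 0.21 and of -0.74 and 0.14. Of 30 proteasome subunits 19 were lower in 786-O and none higher, 17 fell in 786-O, 16 rose in 5637 and 7 did both. PSMD1 had changes of -0.49 and 0.20, PSMA3 of -0.52 and 0.17, and PSMC5 of -0.44 and 0.17. Chaperones of the endoplasmic reticulum gave 9 higher and 3 lower of 23; the share called, 52.2%, was below the 57.6% of all tested genes. HYOU1 fell from 26.1 ± 0.646 to 11.9 ± 0.388 in 786-O and rose from 27.7 ± 0.656 to 30.8 ± 0.518 in 5637; DNAJB9 had changes of 0.65 and -0.24, and CALR, calreticulin, rose in both (0.84 and 0.18).

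Lysosomal genes and Kruppel-like factors were largely higher in 786-O. Of 38 tested lysosomal genes 26 were higher and 2 lower in 786-O, and 7 were up in 786-O and down in 5637. MANBA, a lysosomal mannosidase, rose from 2.24, 2.22 and 2.44 to 4.42, 4.55 and 4.3 FPKM in 786-O and fell from 12.7, 12.4 and 12.7 to 11, 11 and 10.9 in 5637. CTSH, a cathepsin, had changes of 0.87 and -0.14. PSAP, the precursor of the saposins, was an exception: it fell in both lines, from 429.6 ± 23.9 to 84.1 ± 1.97 in 786-O and from 373 ± 7.47 to 284 ± 2.63 in 5637. Of 11 tested Kruppel-like factors, a zinc finger family listed after values were seen, 9 were higher in 786-O, 7 fell in 5637 and 4 were opposite. KLF10 rose from 14.9, 16.7 and 15.6 to 27.3, 27.8 and 26.3 in 786-O and fell from 67.7, 67.1 and 68.7 to 62, 61 and 61.4 in 5637, a fall not called without 5637 shCBX7 library 2 or 3 or 5637 control 1 or 3. KLF13 and KLF3 rose by 0.65 and 0.80 in 786-O beside changes of -0.17 and -0.02 in 5637. CLK kinases and YPEL proteins were also listed after values were seen. Of the 3 tested CLK kinases, CLK3 had changes of 0.11 and -0.23 and CLK4 of 0.36 and -0.14. Of 3 tested YPEL proteins, YPEL5 had changes of 0.69 and -0.38. The YPEL protein not named here fell in both lines (-0.26 and -0.44) and had no called line difference.

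Most genes of cell division fell in 786-O. Of 40 tested DNA replication genes 30 were lower in 786-O and none higher. In 786-O 33 fell, and in 5637 4 rose and 2 fell. TK1, thymidine kinase, fell from 200.3, 167 and 175 to 61.2, 58.7 and 63.1 FPKM in 786-O and from 98.3, 97.1 and 97.2 to 84, 86.1 and 87.9 in 5637. Its fall in 5637 was not called with no filter on low values, nor without 5637 shCBX7 library 1 or 2 or any 1 of the 5637 controls. MCM6, of the replicative helicase, fell from 24.5 ± 0.716 to 11.4 ± 0.326 in 786-O and read 27.8 ± 0.599 and 28.1 ± 0.464 in 5637, and MCM10, which acts in activating that helicase, had changes of -0.68 and 0.17. Of 34 genes of G2 and mitosis 24 were lower and 1 higher, with 29 falling in 786-O and 11 in 5637. PLK1 and CCNB1, a kinase and a cyclin of mitosis, had changes of -0.90 and -0.77 in 786-O beside -0.0017 and 0.03 in 5637, and TOP2A fell by 1.10 and 0.20 on the log2 scale, the latter not called under quantile normalization. In bulk RNA, fewer dividing cells and less message per cell cannot be told apart. CDK inhibitors gave 3 higher and 2 lower of 6. CDKN1A, the p21 inhibitor, rose from 51, 42 and 45.5 to 142, 136 and 140.2 in 786-O while 5637 read 91.2 ± 0.773 and 84.2 ± 1.31; CDKN2D and CDKN1B rose in 786-O (0.79 and 0.42) and fell in 5637 (-0.42 and -0.23). Of 24 p53 targets and death receptors 14 were higher and 3 lower in 786-O. FAS, a death receptor, rose from 9.17 ± 0.778 to 29.4 ± 1.08 in 786-O and read 4.99 ± 0.238 in controls and 4.37 ± 0.0903 with shCBX7 in 5637. Its change in 5637 of -0.16 was called with all libraries and not in 11 of 21 alternatives, 9 of which left out 1 library: any shCBX7 library of either line, 786-O control 3 or 5637 control 1 or 3. BBC3, the death protein PUMA, had changes of 1.16 and -0.29.

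Receptors and growth signalling were mixed. In the list of FGF receptors, ligands and adaptors, 2 of 12 were higher and 6 lower in 786-O. FGFR4 fell in 786-O from 11.3, 9.48 and 10.0 to 4.81, 3.5 and 3.45 FPKM and read 3.47 ± 0.107 and 3.24 ± 0.285 in 5637. FGF2, a ligand, had changes of -0.57 and -0.07. Of 17 MAPK output genes 10 were higher and 5 lower. EGR1, an immediate early transcription factor, fell from 3.02, 3.01 and 2.86 to 0.202, 0.421 and 0.232 in 786-O and rose from 3.0, 3.11 and 3.02 to 3.87, 3.74 and 4.0 in 5637, a rise not called with a pseudocount of 0.1. CCND1, cyclin D1, fell from 215 ± 3.87 to 153 ± 7.47 and rose from 36.2 ± 0.178 to 47.1 ± 1.15, and ETV4 had changes of 0.69 and -0.18. Of 21 genes of TGF-beta signalling 13 were higher and 4 lower. SMAD7, its inhibitory SMAD, had changes of 0.31 and -0.30, and the target INHBA rose in both lines and further in 786-O (1.06 and 0.19).

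Matrix genes were largely higher in 786-O. Of 27 matrix and mesenchymal genes 17 were higher and 3 lower in 786-O. PLAU, urokinase, rose from 33.1 ± 1.46 to 89.3 ± 2.15 FPKM in 786-O and read 202 ± 2.8 and 214 ± 6.98 in 5637. LAMB3, a laminin chain, and TNC, tenascin-C, had changes of 1.08 and 1.36 in 786-O and of -0.02 and 0.42 in 5637. Of 12 integrin subunits 4 were higher and 1 lower, a share called of 41.7% against 57.6% of all tested genes; ITGA5, ITGA2 and ITGB1 rose by 1.13, 0.79 and 0.32 in 786-O, beside 0.13, 0.33 and 0.03. Of 13 epithelial and luminal genes 9 were higher and 1 lower: PPARG, a nuclear receptor of luminal urothelium, had changes of 0.76 and 0.05, CLDN1 of 0.44 and -0.10, and the receptor ERBB2 of -0.54 and 0.10. Only 6 of 32 basal and squamous genes could be tested in both lines. JUP, plakoglobin, rose from 1.83 ± 0.249 to 4.86 ± 0.426 in 786-O and read 108 ± 1.58 and 110.0 ± 1.67 in 5637, S100A2 had changes of -0.54 and 0.33, and CD44 of 0.14 and -0.13.

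Metabolic genes were lower in 786-O in most lists. Of 57 tested nuclear genes of oxidative phosphorylation (15 of 76 could not be joined) 31 were lower and 1 higher. The share called, 56.1%, was near the 57.6% of all tested genes. Of all tested genes 32.7% were lower in 786-O. SDHD, of complex II, fell from 21.8 ± 0.163 to 5.89 ± 0.417 FPKM in 786-O and from 10.2 ± 0.517 to 8.52 ± 0.652 in 5637, and CYC1 and UQCRC1, of complex III, had changes of -0.66 and -0.0039 and of -0.62 and -0.06. Of 20 glycolytic genes 11 were lower and 5 higher, and 5 of the lower ones were down in 786-O and up in 5637, among them PGK1 (-0.41 and 0.17). The glucose transporters went apart in 786-O: SLC2A3 rose from 8.66 ± 0.615 to 21.8 ± 0.774 and SLC2A1 fell from 298 ± 26.7 to 177 ± 6.58, with changes of -0.01 and -0.10 in 5637. Of 24 HIF and hypoxia targets, which 786-O cells are known to keep active through loss of VHL, 15 were higher and 3 lower; ADM, adrenomedullin, rose from 56.6 ± 2.22 to 147 ± 8.1 in 786-O and fell from 77.1 ± 1.99 to 67.3 ± 2.6 in 5637, and CA12 had changes of -1.18 and -0.19. Of 24 cholesterol synthesis genes 15 were lower and 2 higher. DHCR7 and ACAT2 had changes of -1.15 and -0.10 and of -0.70 and 0.06, whereas INSIG1, a brake on the pathway, rose from 41.3 ± 2.28 to 76.1 ± 3.32 in 786-O and fell from 32.7 ± 0.383 to 24.9 ± 0.865 in 5637. Of 10 enzymes of purine synthesis, listed after values were seen, 8 were lower; PAICS had changes of -0.45 and 0.22 and IMPDH2 of -1.19 and -0.08.

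Stress and drug-response lists went both ways. Of 25 genes of the integrated stress response, the pathway of eIF2 phosphorylation, 16 were higher and 5 lower in 786-O. GDF15, a stress cytokine, rose from 39.6 ± 4.9 to 112 ± 3.08 FPKM in 786-O and read 33.4 ± 1.23 and 29.8 ± 0.836 in 5637; PPP1R15A and DDIT3 rose by 1.18 and 1.49 in 786-O, beside 0.02 and 0.39. Of 23 NRF2 antioxidant targets 11 were lower and 5 higher. GSR, glutathione reductase, had changes of -0.85 and -0.0005, and FTH1, ferritin heavy chain, of 0.39 and -0.27. Cisplatin acts by crosslinking DNA, and the series title concerns it. Of 31 repair genes for such lesions 12 were lower and 6 higher in 786-O, and the share called, 58.1%, was near the 57.6% of all tested genes. FANCD2, of the Fanconi pathway, fell from 4.08 ± 0.358 to 2.44 ± 0.124 in 786-O and rose from 26.5 ± 0.587 to 30.7 ± 0.671 in 5637, FANCG had changes of -0.99 and -0.02, and DDB1 of -0.98 and -0.15. Of 18 genes of platinum transport and detoxification 10 were lower and 2 higher; the LRRC8 channel subunits LRRC8A and LRRC8D had changes of 0.96 and 0.05 and of -0.52 and 0.09, and GCLM, of glutathione synthesis, of -0.53 and 0.08. No cisplatin exposure is among these libraries.

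**Figure D5:**
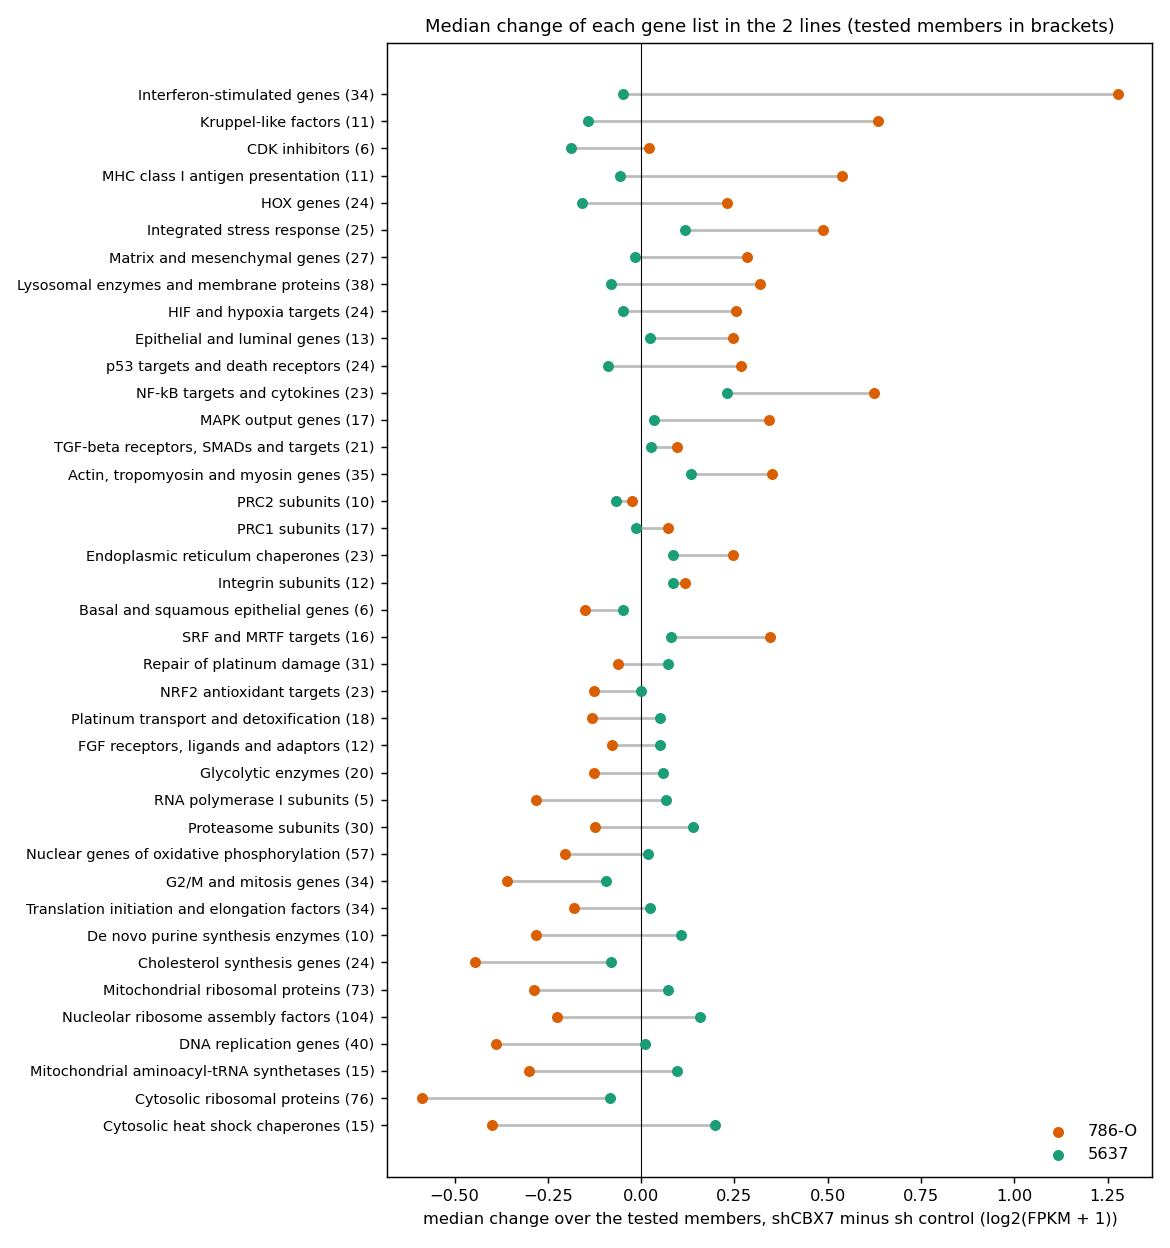
Median change over the tested members of each list with at least 5, in 786-O (orange) and 5637 (green), log2(FPKM + 1), lists ordered by the median line difference. Interferon-stimulated genes stand at 1.28 and -0.05, cytosolic ribosomal proteins at -0.59 and -0.08, and nucleolar factors on either side of 0.

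These list medians kept their sign in both lines under quantile normalization, median centring, 1 weight per line and without 5637 control library 1 for the lists of interferon-stimulated, HOX, lysosomal, nucleolar, ribosomal, mitochondrial ribosomal, heat shock and proteasome genes. The replication median in 5637, 0.01, turned to -0.006 and -0.02 under the first 2. The markers of origin followed the labels in part: 10 of 12 urothelial markers were at 1 FPKM or more in 5637 and 2 in 786-O, and 8 of 10 renal markers in 786-O and 6 in 5637. UPK1B and UPK2 were near 0 in 5637 and CA9 was under 1 FPKM in 786-O. Libraries of the same arm correlated at 0.994 to 0.998 and libraries of different lines at 0.689 to 0.730 (log2 scale). Whole reads recovered from the FPKM came to 16384151 to 18868874 per library in 786-O and 15771680 to 22834911 in 5637. The sums in 5637 leave out the nonzero values that did not come out as whole reads. The library totals implied by the FPKM were 16503790 to 18966972 in 786-O and 19784633 to 32544588 in 5637. By these totals every 5637 library was deeper than every 786-O library.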

How the data were processed

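The authors deposited FPKM values, 1 table per line; which aligner, counter and strand setting they used is not given in the sources. The samples are human, yet mm10, a mouse build, stands in the submitters' processing notes. Gene identifiers, lengths and positions of the 786-O table match GENCODE 29 (GRCh38), and the 5637 table holds gene names only. Columns without a group numbered 0; the 5637 control columns could be tied to their group but not to single samples, so their library numbers are those of the table. Groups came from titles, cell line and genotype labels. FPKM were turned into log2(FPKM + 1) and fitted with limma 3.58.1 (R 4.3.3; 1 mean per line and arm, mean-variance trend, Benjamini-Hochberg over 10354 genes), after tests on simulated data. Tables and figures used Python 3.11.15, pandas 2.3.3, numpy 2.4.6 and matplotlib 3.10.9. Whole reads could be recovered from FPKM and length (tolerance 0.01) for all nonzero values in 786-O and 90.9% to 91.6% of them in 5637, where lengths come from the other table. They served for depth and for the alternative with voom.

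Genes were named by rule: those of the series title; 6 per order or direction for the opposite classes (largest smaller change of both lines) and for genes called in 1 line (largest change, under 0.2 in the other line); 3 per line for unequal moves; and up to 3 called members per list. Some genes that the rule names are not reported here, and none took their place. Rule genes had a mean of at least 1 FPKM in each line and arms that did not overlap where called. The comparison, members and lists were chosen with earlier results of these data known. A permutation of arms within each line was planned and run for the genes of the title. Its exact two-sided p was 0.275 for CBX7, 0.1 for FGFR3 and 0.24 for EZH2. It tests for no change in either line and not for the line difference, so no result rests on it. Alternatives were a pseudocount of 0.1, no filter or one of 2 FPKM, quantile normalization, median centring, no trend, 1 weight per line, the replicate block, voom and leaving out each of the 12 libraries. Promoters (250 bases before the start) came from RefSeq, GRCh38.p14, for 8346 tested genes.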

Additional observations from a re-analysis of the deposited data

Results flagged for a closer look

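Every named gene below was noted because limma called its line difference (adjusted p under 0.05), so its change in 786-O and its change in 5637 differed on a direct test. The value is the line difference in log2(FPKM + 1), 786-O minus 5637, and it was called for all 155 named genes, 70 of them higher and 85 lower in 786-O. Most genes were named for a large line difference, so the values describe them and their share is no result. Groups of 3 libraries were not searched for outlying samples. The line differences for the genes of the series title were CBX7 -0.22, FGFR3 -2.15 and EZH2 0.24. Among genes up in 786-O and down in 5637, the values were HES1 0.94, GOLGA7B 1.85, CLK1 1.16, YPEL2 0.90, ETV7 1.06 and IFITM1 4.01. Among genes down in 786-O and up in 5637, the values were MALL -1.43, NCOA5 -1.17, WDR4 -1.23, PFAS -1.69 and HPS6 -1.40. Among genes up in 786-O only, the values were ACTA2 4.83, ISG15 2.45, CD274 2.31, ANGPTL4 2.09, PPP1R3B 2.08 and LGALS9 2.03. Among genes down in 786-O only, the values were ACTB -3.37, SNRPC -2.64, B4GALT1 -2.25, GGCT -1.90, SNX12 -1.86 and ALG8 -1.92. Among genes up in 5637 only, the values were B3GALT6 -0.90, S100A3 -0.96, GTF3C6 -0.81, PDGFB -0.76, TTPAL -0.68 and ARPC4 -0.52. Among genes down in 5637 only, the values were AVPI1 0.42, CCNL1 0.55, TSC22D2 0.46, STARD4 0.57, ARRDC4 0.47 and RAET1G 0.58. Among genes that moved further in 786-O, the values were ACTG1 -2.84, LGALS3BP -2.58 and ARHGDIB 2.37. Among genes that moved further in 5637, the values were PRMT6 -0.79 and HMOX1 -0.64, beside those of FGFR3 and EZH2 given above.

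For Polycomb subunits and HOX genes the line differences were L3MBTL2 -1.11, CBX6 -0.69, RBBP4 0.79, EZH1 0.75, JARID2 0.51, HOXA9 1.21, HOXB7 0.99 and HOXA5 0.80. In growth factor and MAPK genes they were FGFR4 -1.12, FGF2 -0.49, EGR1 -1.89, ETV4 0.87, CCND1 -0.86, INHBA 0.87 and SMAD7 0.61. Among interferon, antigen presentation, cytokine and leukocyte genes the values were OAS1 2.62, HLA-C 0.97, HLA-B 0.81, IL11 -1.53, ICAM1 1.17, IL1B 1.16 and LAPTM5 -0.82. For adhesion, matrix and epithelial genes the line differences were ITGA5 1.0, ITGA2 0.46, ITGB1 0.29, PLAU 1.33, LAMB3 1.10, TNC 0.95, JUP 1.02, S100A2 -0.86, CD44 0.27, PPARG 0.72, ERBB2 -0.64 and CLDN1 0.54. In cell division and death genes they were TK1 -1.37, MCM6 -1.06, MCM10 -0.85, PLK1 -0.90, TOP2A -0.89, CCNB1 -0.80, CDKN1A 1.69, CDKN2D 1.22, CDKN1B 0.65, FAS 1.74 and BBC3 1.46. Among cytosolic ribosome, translation and nucleolar genes the values were RPSA -1.31, RPL4 -1.03, EIF4G1 -0.86, EEF1B2 -0.75, EIF6 -0.62, NOL6 -1.12, TBL3 -0.94, NCL -0.90, POLR1A -1.32, POLR1E -0.64 and POLR1C -0.23. For mitochondrial genes the line differences were MRPS11 -1.48, MRPL20 -1.31, MRPS12 -1.27, SDHD -1.49, CYC1 -0.66, UQCRC1 -0.56, AARS2 -1.02 and EARS2 -0.80. In metabolic and hypoxia genes they were SLC2A3 1.25, SLC2A1 -0.65, PGK1 -0.58, ADM 1.55, CA12 -0.99, INSIG1 1.25, DHCR7 -1.05, ACAT2 -0.76, IMPDH2 -1.11 and PAICS -0.67. Among stress, antioxidant and chaperone genes the values were GDF15 1.64, PPP1R15A 1.16, DDIT3 1.10, HYOU1 -1.22, DNAJB9 0.89, CALR 0.66, HSP90AA1 -1.40, HSPD1 -1.17, HSPA8 -0.88, GSR -0.85 and FTH1 0.66. For proteasome and lysosome genes the line differences were PSMD1 -0.70, PSMA3 -0.69, PSMC5 -0.60, PSAP -1.95, CTSH 1.01 and MANBA 0.90. In genes of platinum repair, transport and detoxification they were FANCG -0.97, DDB1 -0.83, FANCD2 -0.77, LRRC8A 0.92, LRRC8D -0.61 and GCLM -0.61. Among the smaller families the values were KLF10 0.89, KLF13 0.83, KLF3 0.82, CLK4 0.50, CLK3 0.34 and YPEL5 1.07. Genes chosen after their values were seen had IFIT3 1.73, IFI6 2.36, LIF -1.01, CXCL5 -0.80, NFKB1 -0.87, HRAS -1.66, INTS3 -1.30, EDN1 1.58 and TAGLN -1.10.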

How the results depend on the processing

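Most named genes were chosen with their line difference called in these same libraries, so agreement between the alternatives is largely built in. Not every gene was tested in every alternative. Across 21 alternatives, the line differences of the 155 named genes kept their sign in all 3201 tested values and their call in 3192. The 9 that lost the call were POLR1C under quantile normalization (-0.15, adjusted p = 0.0702 in limma) and 8 values of CBX7: -0.17 under median centring (adjusted p = 0.0816), -0.22 with the replicate block (adjusted p = 0.0548) and 6 of the 12 fits that left out 1 library. Leaving out 1 library moved the CBX7 line difference between -0.26 and -0.19, that of EZH2 between 0.17 and 0.27 and that of FGFR3 between -2.23 and -2.06. Of 252 counts of called genes, 232 lay within 1.5 times the reported one. With no filter on low values (22161 genes tested) 498 genes were up and 568 down in 5637 only. Under quantile normalization 594 genes were up in 786-O and down in 5637, 345 were down in 5637 only and 76 moved further in 5637; under median centring 315 were down in 5637 only. With 1 weight per line (0.52 for 786-O and 1.91 for 5637) the counts were 594 up in 786-O and down in 5637, 1002 up and 1337 down in 786-O only, 554 up and 374 down in 5637 only, 934 further in 786-O and 29 further in 5637. Leaving out 1 library gave 236 to 491 genes up in 786-O and down in 5637, 351 to 758 that moved further in 786-O and 27 to 56 that moved further in 5637.

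Among list members the opposite class was least stable for MCM10, which left it in 12 of 21 alternatives, FAS in 11 and S100A2 in 7. Some members called in 786-O only became opposite in alternatives. Among them were MRPL20 in 7, L3MBTL2 in 6, CDKN1A, GDF15 and TBL3 in 5 each and CLDN1 in 4. For genes given in the report by their changes alone, the call in 5637 was lost in 12 alternatives for MCM10, 7 for S100A2, 6 each for HLA-C, KLF13 and BBC3, 5 for PSMA3, 2 for RPL4 and 1 for FTH1, and the call in 786-O in 6 for CLK3. The share of calls higher in 786-O was 43.2%, against 50.6% under median centring and 48.9% under quantile normalization. Same-numbered libraries of the 2 arms correlated at 0.05 to 0.17 in 786-O and -0.10 to 0.06 in 5637 after group means were removed, so the numbers were not taken as pairs; the replicate block called 6005 genes, of which 5748 were also called without it. In 786-O each of the 3 libraries of either arm correlated best with its own number, and in 5637 this did not hold for every library. How depth bears on these calls was not tested.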

Other observations

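Some genes outside the lists stood out between the lines; they were chosen after their values were seen. HRAS, the small GTPase of growth factor signalling, rose in 5637 from 2.03, 5.58 and 5.42 FPKM in controls to 23.2, 14.9 and 15.4 with shCBX7 (1.87, limma adjusted p = 0.000177), with 5637 control library 1 below the other 2 controls and 5637 shCBX7 library 1 above the other 2. In 786-O it read 54.9, 46.6 and 45.2 in controls and 55.7, 55.7 and 58.8 with shCBX7 (0.22, adjusted p = 0.447). Without 5637 control library 1 its line difference was -1.29, against -1.66 with all libraries, and it kept its call.

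INTS3, a subunit of the Integrator complex that processes small nuclear RNA, fell in 786-O from 3.98, 3.86 and 3.7 to 2.95, 2.9 and 2.84 FPKM and rose in 5637 from 0.569, 0.507 and 0.691 to 1.64, 2.71 and 2.16. With 1 weight per line its fall in 786-O was not called. EDN1, endothelin-1, rose in both lines and further in 786-O: from 3.74, 3.68 and 3.73 to 29.4, 27.9 and 26 FPKM in 786-O (2.61) and from 3.17, 3.08 and 2.87 to 7.63, 7.07 and 6.95 in 5637 (1.02).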
